A study of Mus musculus with 24 samples.

Results

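The comparison described here is that of Cre+ with Cre- microglia during demyelination by cuprizone. It uses 6 of the 24 RNA-seq libraries of the series, chosen by their labels: 3 from Cre+ mice and 3 from Cre- mice, all after 6 weeks of cuprizone, a copper chelator in the diet that kills oligodendrocytes and strips myelin. Cre+ mice carry creERT2, a Cre recombinase that works only in the presence of tamoxifen, in the Cx3cr1 locus, which is active in microglia and other mononuclear phagocytes. The series text calls the Cre+ animals tamoxifen-induced Dicer1 knockouts and the Cre- animals wild type. Both groups received tamoxifen, which the labels place at the start and the series text at 4 to 5 weeks. Cells were sorted from the brain as CD45-intermediate and CD11b-positive. The remaining 18 libraries come from naive mice and from mice returned to normal diet. They enter the fits only to estimate the spread between replicates, except where naive mice are named. By their labels, naive Cre+ and Cre- mice also received tamoxifen at the start. Mice returned to normal diet received it at the start or at the peak.

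Microglia are the resident macrophages of the brain. During demyelination they divide, take up and digest myelin debris, and change the set of cytokines, surface receptors and antigen-presenting molecules that they make. Dicer1 encodes the ribonuclease that cuts precursor hairpins into mature microRNAs (miRNAs). An miRNA pairs through its seed, bases 2 to 8, with sites mostly in the 3′ UTR of mRNAs and lowers their stability or translation.

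The values are counts per gene. Totals were 22.4 to 32.7 M counts in the 3 Cre+ libraries and 21.9 to 24.2 M counts in the 3 Cre- libraries. CPM is the usual depth-scaled count, here with library sizes scaled by TMM, a normalisation by trimmed mean of log ratios. Triplets of values are in the order of replicates 1, 2 and 3, which the series text describes as biological replicates. Fold changes are log2 values of Cre+ over Cre- with their standard error (n = 3 each). A gene is called higher or lower at an adjusted p below 0.05 in the quasi-likelihood test of edgeR, adjusted by Benjamini-Hochberg across all 17579 genes that were tested. The standard error is derived from the F statistic of that test, with the spread estimated over all 24 libraries. It is not the spread of the 6 libraries alone.

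Both genes that bear on the genotype were read first. Dicer1 (ENSMUSG00000041415, chromosome 12, 104687742 to 104751952) stood at 11.6, 15.7 and 17.5 CPM in Cre+ and 23.1, 22.7 and 15.2 CPM in Cre- libraries. The 2 groups overlapped, since Cre+ replicates 2 and 3 lay above Cre- replicate 3, and the difference did not pass the test (log2 fold change -0.45 ± 0.17, adjusted p = 0.0922). Exon counts are summed over the gene, so loss of a deleted segment is not resolved by them. In naive mice Dicer1 went the other way, at 21.8, 22.1 and 24.3 CPM in Cre+ and 18.6, 11.1 and 12.1 CPM in Cre- libraries (log2 fold change 0.72 ± 0.16, adjusted p = 0.00151), and the difference of effects, demyelination minus naive, was -1.17 ± 0.23 (adjusted p = 0.00165). Cx3cr1 (ENSMUSG00000052336, chromosome 9, 119901616 to 120069879), which encodes the receptor of fractalkine and holds the creERT2 insertion, stood at 104, 2312 and 89.6 CPM in Cre+ and 5277, 5318 and 6139 CPM in Cre- libraries. Cre+ replicate 2 held 41.5% of the Cre- mean, and replicates 1 and 3 held 1.87% and 1.61%. The Cre+ libraries therefore stood apart from each other at this locus, and the gene did not pass the test (log2 fold change -2.74 ± 1.01, adjusted p = 0.105). One naive Cre+ library, replicate 1, was also low, at 2.18% of its Cre- mean. All other Cre+ libraries of the series held between 41.5% and 59.3% of the Cre- mean of their state. In what follows, Cre+ replicate 2 is therefore given beside replicates 1 and 3, and counts are given again with the low libraries left out.

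Of the 17579 genes, 1612 were called (9.17%), 1001 higher (5.69%) and 611 lower (3.48%) in Cre+ microglia. Counts of calls in the gene lists below are to be read against these shares. With the size factors of DESeq2 in place of TMM the split was 1247 higher and 467 lower. The median log2 fold change over all genes was -0.01, and over the called genes it was 0.63 for those higher and -0.62 for those lower. The 3 Cre+ and 3 Cre- values did not overlap in 31.8% of all genes. Among the called genes they did not overlap in 938 of the 1001 higher and 593 of the 611 lower, together 8.71% of all genes.

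**Figure D1:**
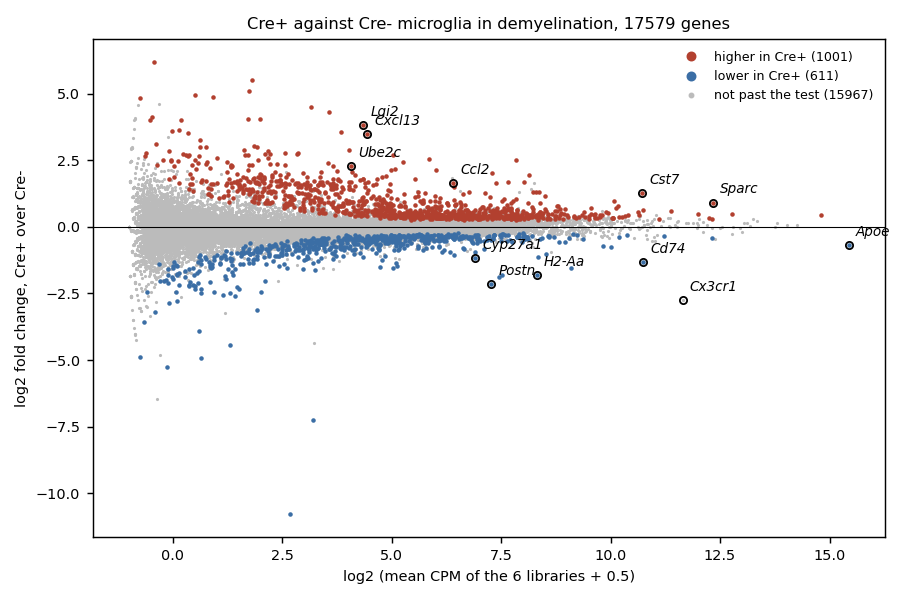
Log2 fold change of Cre+ over Cre- microglia in demyelination (y axis) against the log2 of mean CPM plus 0.5 over the 6 libraries (x axis), 1 point a gene. Red genes were called higher in Cre+, blue genes lower and grey genes neither. Among the genes marked by name, Lgi2 lies at 3.82 and Postn at -2.15, and Cx3cr1, at -2.74, is grey.

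Cre+ replicate 2, the library with the most Cx3cr1 of the 3, was also the nearest to Cre- microglia in most called genes. It was the nearest of the 3 in 780 of the 1001 genes called higher and 444 of the 611 called lower, against 43.4% of the genes not called. The median distance of the higher genes from the Cre- mean was 0.81, 0.37 and 0.64 in replicates 1, 2 and 3, as a difference of log2(CPM + 0.5). For the lower genes it was -0.70, -0.40 and -0.62. Replicate 2 still lay on the called side of the Cre- mean in 993 of the 1001 and in all 611. Whether the Cx3cr1 level has a part in this was not tested. The labels do not say whether creERT2 sits on 1 or both alleles. In replicates 1 and 3 the effect of Dicer1 deletion and that of a near loss of Cx3cr1 mRNA therefore cannot be told apart. In replicate 2, at 41.5% of the Cre- mean of Cx3cr1, Dicer1 deletion also comes with creERT2 and less Cx3cr1 mRNA. Their effects cannot be told apart there either. With replicates 1 and 3 left out, 1 Cre+ library remained and 6 genes were called (0.033%), 3 higher (0.0165%) and 3 lower (0.0165%), all of them among the 1612. With the low naive library left out as well, an alternative added after the data were seen, 81 genes were called (0.449%), 78 of them among the 1612. Leaving out Cre+ replicate 1 alone gave 422 calls, replicate 2 alone 2165 and replicate 3 alone 838. Leaving out Cre- replicate 1, 2 or 3 gave 971, 883 and 826 calls.

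The 6 genes called with replicate 2 as the only Cre+ library were Ccl2, Htra3 and Kpna2, higher, and Cyp27a1, Postn and Adgre4, lower. Of these, Adgre4, Htra3 and Kpna2 lie outside the rule for naming genes and were chosen after their values were seen. Cyp27a1, the mitochondrial sterol 27-hydroxylase, stood at 57.7, 93.2 and 70.2 CPM in Cre+ and 162, 175 and 158 CPM in Cre- libraries. All 3 Cre+ libraries lay below all 3 Cre- libraries, with replicate 2 the highest of the Cre+ values (log2 fold change -1.16 ± 0.12, adjusted p = 5.70e-06). Kpna2, an importin that carries proteins into the nucleus, stood at 97.2, 70.04 and 85.03 CPM in Cre+ and 43.03, 42.4 and 43.3 CPM in Cre- libraries. Its Cre+ values lay above every Cre- value, and the 3 Cre- libraries were within a narrow range (log2 fold change 0.97 ± 0.11, adjusted p = 2.91e-05). Htra3, a secreted serine protease, reached 148, 55.4 and 109 CPM in Cre+ and 25.1, 25.6 and 20.4 CPM in Cre- libraries. Here replicate 2 lay between its 2 sister libraries and the Cre- group (log2 fold change 2.14 ± 0.26, adjusted p = 0.000137). Adgre4, an adhesion receptor of the EGF-TM7 family found on monocytes and macrophages, stood at 1.82, 0.990 and 1.62 CPM in Cre+ and 4.33, 9.19 and 4.87 CPM in Cre- libraries, low in all 3 Cre+ libraries (log2 fold change -2.04 ± 0.28, adjusted p = 0.000137).

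Genes of cell division formed the most uniform change. Of 30 genes of G2 and mitosis, 29 rose and none fell, with a median log2 fold change of 1.62, and Cenpa was the exception, with a log2 fold change of 0.64 ± 0.24 and adjusted p = 0.109. All 30 had Cre+ values that did not overlap the Cre- values. Ube2c, the E2 enzyme of the anaphase-promoting complex, stood at 29.8, 26.7 and 24.6 CPM in Cre+ and 5.54, 5.04 and 5.96 CPM in Cre- libraries. Replicate 2 was as high as replicates 1 and 3 (log2 fold change 2.29 ± 0.35, adjusted p = 0.000472). Cdk1, the kinase that drives entry into mitosis, stood at 58.97, 52.9 and 49.9 CPM in Cre+ and 23.9, 23.4 and 21.8 CPM in Cre- libraries, about equal in the 3 Cre+ libraries and above all Cre- libraries (log2 fold change 1.23 ± 0.19, adjusted p = 0.000454). Birc5, which encodes survivin of the chromosomal passenger complex, stood at 25.997, 24.5 and 21.9 CPM in Cre+ and 6.30, 7.53 and 8.47 CPM in Cre- libraries (log2 fold change 1.70 ± 0.30, adjusted p = 0.00132). Its 2 groups were apart, and Cre+ replicate 3 was only slightly below the others. Aurka, the kinase of spindle poles, stood at 15.5, 13.02 and 13.7 CPM in Cre+ and 4.28, 4.10 and 5.96 CPM in Cre- libraries and likewise showed no overlap (log2 fold change 1.55 ± 0.28, adjusted p = 0.00132). Mki67, the proliferation marker Ki-67, had 26.9, 28.9 and 27.8 CPM in Cre+ and 7.18, 6.42 and 7.95 CPM in Cre- libraries, and Top2a, the topoisomerase that separates sister chromatids, had 49.7, 46.03 and 43.5 CPM in Cre+ and 12.99, 16.2 and 17.1 CPM in Cre- libraries. The levels of the list's genes therefore lay close together within each group. The list's median was 1.61, 1.56 and 1.47 above the Cre- mean in Cre+ replicates 1, 2 and 3, so that replicate 2 did not stand apart. With replicates 1 and 3 left out the median was 1.64 and no member was called, and with the low naive library left out as well 25 were. The list held 16 calls without Cre+ replicate 1 and 19 without Cre- replicate 1. In naive mice all 30 were called higher in Cre+, with a median of 1.60. Cdk1 stood there at 5.94, 12.9 and 11.6 CPM in Cre+ and 5.49, 6.04 and 4.82 CPM in Cre- libraries, and Birc5 at 2.25, 8.09 and 6.73 CPM in Cre+ and 1.98, 1.96 and 2.28 CPM in Cre- libraries. In both genes naive Cre+ replicate 1, the library low in Cx3cr1, lay within the Cre- range. Aurka, at 2.85, 7.88 and 7.08 CPM in naive Cre+ and 1.70, 1.80 and 2.31 CPM in naive Cre- libraries, had that library above the Cre- values but far below the other Cre+ libraries.

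**Figure D2:**
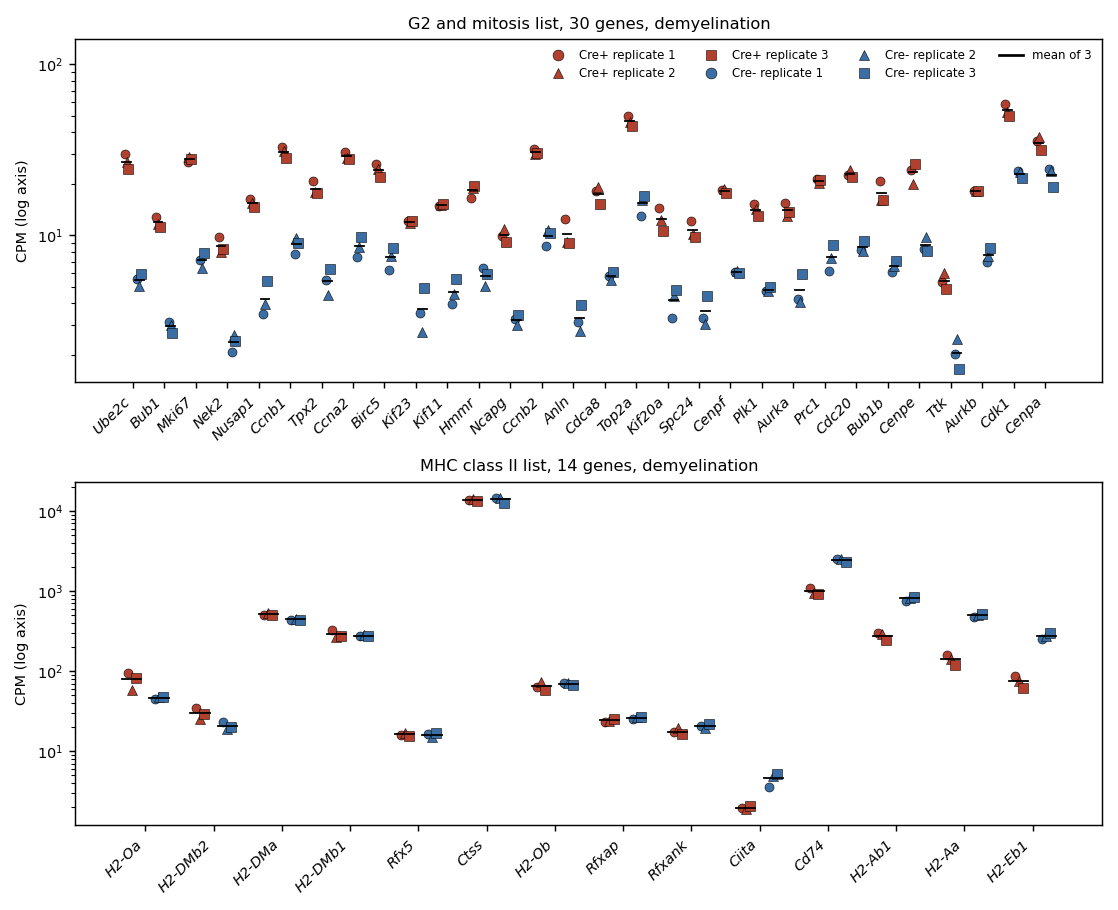
CPM on a log axis of the 30 genes of the G2 and mitosis list (upper plot) and the 14 tested genes of the MHC class II list (lower plot), with Cre+ in red left of Cre- in blue, 1 point a library and bars at the mean of 3. Each mitotic gene has its 3 Cre+ points together above its 3 Cre- points, as for Mki67 with 26.9 to 28.9 against 6.42 to 7.95 CPM. The class II genes H2-Aa, H2-Ab1, H2-Eb1, Cd74 and Ciita have theirs below.

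Of 30 genes of DNA replication and S phase, 13 rose and none fell (median 0.62). Ccne2, the cyclin E that works with Cdk2 at the start of S phase, stood at 11.9, 11.1 and 11.3 CPM in Cre+ and 3.45, 4.43 and 4.49 CPM in Cre- libraries (log2 fold change 1.47 ± 0.28, adjusted p = 0.00184). Tk1, the thymidine kinase of the salvage pathway, had 23.2, 21.2 and 17.7 CPM in Cre+ and 10.7, 10.6 and 10.6 CPM in Cre- libraries (log2 fold change 0.96 ± 0.18, adjusted p = 0.002). Gins1, a subunit of the replicative helicase, and Rrm1, the large subunit of ribonucleotide reductase, had log2 fold changes of 0.85 ± 0.17 and 0.60 ± 0.12 (adjusted p = 0.00237 and 0.00334). None of these 4 genes had overlapping groups. The per-library medians of the S phase list were 0.58, 0.62 and 0.56. Leaving out Cre+ replicate 1 or Cre- replicate 1 reduced the calls of this list to 5, Cre+ replicate 2 to 9, and each of the other 3 libraries to 7.

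Of 24 regulators of G1, 10 rose and none fell (median 0.49). Cdkn2c, an inhibitor of Cdk4 and Cdk6, stood at 23.3, 22.3 and 20.1 CPM in Cre+ and 10.6, 12.6 and 11.6 CPM in Cre- libraries (log2 fold change 0.92 ± 0.20, adjusted p = 0.00425), and Foxm1, the transcription factor of mitotic genes, at 5.81, 6.70 and 6.37 CPM in Cre+ and 2.41, 2.38 and 2.60 CPM in Cre- libraries (log2 fold change 1.35 ± 0.33, adjusted p = 0.0108). Rbl1, a pocket protein of the retinoblastoma family, had a log2 fold change of 0.43 ± 0.10 (adjusted p = 0.00736). In these 3 genes the Cre+ libraries lay together. Ccnd2, a D-type cyclin, differed from them, at 31.5, 6.98 and 22.6 CPM in Cre+ and 5.15, 5.26 and 7.28 CPM in Cre- libraries. Its replicate 2 lay among the Cre- values while replicates 1 and 3 lay above them (log2 fold change 1.79 ± 0.38, adjusted p = 0.00619), and without replicates 1 and 3 the log2 fold change was 0.29. Of 20 genes of homologous recombination and DNA damage signalling 4 rose, among them Brip1, a helicase, and Msh6, of mismatch repair, with log2 fold changes of 1.72 and 0.46 (adjusted p = 0.00255 and 0.0168). Of 23 targets of p53, 4 rose: Perp, Ccng1, Phlda3 and Tnfrsf10b, with 2.69, 0.51, 1.51 and 2.47 (adjusted p = 0.000816, 0.00853, 0.0109 and 0.00996). Tnfrsf10b was low in both groups, at 1.59, 0.424 and 0.972 CPM in Cre+ and 0.329, 0.111 and 0.0946 CPM in Cre- libraries. It lost its call without Cre- replicate 2 or 3. In all 4 of these p53 targets replicate 2 was the lowest Cre+ library. Without Cre+ replicate 1 the G1, repair and p53 lists held 3, 2 and 1 calls. Without Cre+ replicate 2 the p53 list held 8, and without Cre- replicate 3 it held 2. The G1 list held 6 calls without Cre+ replicate 3 and 5 without Cre- replicate 2.

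The promoters of mitotic genes are known to carry CCAAT boxes, bound by NF-Y, and the cell cycle homology region (CHR), whose core is TTTGAA. The following 4 promoters, of genes of the list that were called higher, are shown for that layout. Each runs from 250 bases before to 50 bases after the gene's start (RefSeq, GRCm38.p6, 5′ to 3′ on the gene's strand), with CCAAT and TTTGAA on either strand in capitals. They lie at chr9:70421505-70421804, minus strand (Ccnb2), chr2:172370521-172370820, minus strand (Aurka), chr10:69352863-69353162, minus strand (Cdk1) and chr2:164769679-164769978, plus strand (Ube2c).
Ccnb2: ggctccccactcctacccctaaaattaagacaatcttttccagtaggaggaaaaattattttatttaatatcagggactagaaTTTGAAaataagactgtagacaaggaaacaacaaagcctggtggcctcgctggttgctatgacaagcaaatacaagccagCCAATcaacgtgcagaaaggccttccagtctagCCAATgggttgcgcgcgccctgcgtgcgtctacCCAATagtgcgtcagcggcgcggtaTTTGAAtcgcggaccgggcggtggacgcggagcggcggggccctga
Aurka: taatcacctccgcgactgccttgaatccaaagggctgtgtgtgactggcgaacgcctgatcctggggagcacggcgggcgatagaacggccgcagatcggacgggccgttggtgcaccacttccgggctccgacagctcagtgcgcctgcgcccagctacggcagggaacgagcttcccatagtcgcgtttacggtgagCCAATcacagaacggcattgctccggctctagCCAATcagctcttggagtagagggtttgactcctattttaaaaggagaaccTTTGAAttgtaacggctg
Cdk1: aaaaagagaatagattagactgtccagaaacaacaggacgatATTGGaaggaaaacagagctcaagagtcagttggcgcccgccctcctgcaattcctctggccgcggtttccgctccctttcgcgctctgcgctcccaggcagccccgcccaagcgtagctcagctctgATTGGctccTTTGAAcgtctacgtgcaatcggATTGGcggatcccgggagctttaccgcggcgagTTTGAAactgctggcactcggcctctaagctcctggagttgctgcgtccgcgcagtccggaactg
Ube2c: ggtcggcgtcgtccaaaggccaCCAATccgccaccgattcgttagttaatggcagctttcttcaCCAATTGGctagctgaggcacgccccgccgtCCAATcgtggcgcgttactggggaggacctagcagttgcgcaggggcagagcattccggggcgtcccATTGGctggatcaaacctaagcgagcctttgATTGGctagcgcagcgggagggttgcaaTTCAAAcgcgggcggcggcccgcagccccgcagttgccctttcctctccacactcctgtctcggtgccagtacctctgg
Ccnb2, the cyclin B2 gene, holds 3 CCAAT boxes spaced 33 bases apart and a TTTGAA 25 bases after the last. Aurka holds a pair of CCAAT boxes 32 bases apart and TTTGAA downstream of both. Promoters were listed for 25 of the 30 mitotic genes, and 18 of these 25 (72.0%) held both motifs, with 22 holding CCAAT and 19 TTTGAA. Among the 11436 tested genes with a listed promoter 5.04% held both, 38.4% CCAAT and 12.2% TTTGAA. Of 25 promoters of the S phase list 2 held both. A match of letters is a description of these promoters and says nothing of binding.

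Markers of another cell type moved in the same libraries. The summed CPM of 12 neutrophil genes was 1357 to 1702 in Cre+ and 222 to 934 in Cre- libraries, without overlap, and none of the 12 was called (median log2 fold change 1.13). Most of that sum came from S100a8, S100a9 and Ngp, and Ngp, a granule protein of immature neutrophils, stood at 507, 456 and 426 CPM in Cre+ and 46.7, 147 and 252 CPM in Cre- libraries. Camp, another granule gene, had 146.3, 132 and 109 CPM in Cre+ and 11.9, 36.9 and 58.9 CPM in Cre- libraries (log2 fold change 1.84 ± 0.97, adjusted p = 0.277). Ly6g, the surface marker that defines the cells, had a lower level, at 3.84, 3.44 and 4.75 CPM in Cre+ and 0.658, 1.72 and 2.93 CPM in Cre- libraries. Cre- replicate 1 was the lowest of the 6 libraries in each of these 5 genes. Their part in the rise of mitotic genes was not tested. In naive mice Ngp stood at 39.3, 93.3 and 167 CPM in Cre+ and 52.04, 148 and 64.96 CPM in Cre- libraries, and Camp at 11.7, 24.3 and 43.1 CPM in Cre+ and 14.99, 44.5 and 12.6 CPM in Cre- libraries. Naive Cre+ replicate 1, the lowest naive Cre+ library in Cdk1, Birc5 and Aurka, was also the lowest naive Cre+ library in both. Naive Cre- replicate 2, the highest of its group in both, was beside the others in Cdk1, at 5.49, 6.04 and 4.82 CPM in the naive Cre- libraries. In demyelination Cdk1 stood at 23.9, 23.4 and 21.8 CPM in the Cre- libraries, whose Ngp values are given above. Neither these values nor the naive ones are a test of the part of neutrophils in the mitotic genes.

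Genes of MHC class II, which presents peptides to CD4+ T cells, changed in both directions. Of 14 tested 5 fell, 2 rose and 7 were not called, with a median of -0.11. H2-Aa, the I-A alpha chain, stood at 157, 143 and 120.0 CPM in Cre+ and 481, 497 and 511 CPM in Cre- libraries. H2-Ab1, the I-A beta chain, stood at 297, 294 and 244 CPM in Cre+ and 756, 824 and 854 CPM in Cre- libraries. H2-Eb1, the I-E beta chain, had 87.4, 74.7 and 61.1 CPM in Cre+ and 253, 274 and 301 CPM in Cre- libraries. In each of these genes the 3 Cre+ libraries lay close together and well below all Cre- libraries. The log2 fold changes were -1.82 ± 0.28, -1.54 ± 0.25 and -1.89 ± 0.30 (adjusted p = 0.00104, 0.00145 and 0.00132). Cd74, the invariant chain that guides class II molecules to endosomes, stood at 1107, 945 and 925 CPM in Cre+ and 2502, 2541 and 2311 CPM in Cre- libraries (log2 fold change -1.30 ± 0.21, adjusted p = 0.000984). Ciita, the transactivator that switches class II genes on, was low in both groups, at 1.98, 1.89 and 2.11 CPM in Cre+ and 3.62, 4.98 and 5.20 CPM in Cre- libraries, yet did not overlap between them (log2 fold change -1.21 ± 0.25, adjusted p = 0.00353). H2-Oa and H2-DMb2, which encode chains of the peptide-editing molecules H2-O and H2-DM, rose by 0.76 and 0.53 on the log2 scale (adjusted p = 0.00036 and 0.013). With Cre+ replicates 1 and 3 left out the 5 lower genes had log2 fold changes of -1.75, -1.42, -1.84, -1.33 and -1.24, and none was called. The list held 6 or 7 calls without any 1 of the 6 libraries. In naive mice H2-Aa and H2-Ab1 were also called lower in Cre+ (log2 -0.86 and -0.88, adjusted p = 0.0351 and 0.0153), and H2-Eb1 was not (-0.76, adjusted p = 0.0814).

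Class II promoters share an X box, with the half-site GCAAC bound by RFX, and a Y box, an inverted CCAAT bound by NF-Y. The promoters of H2-Aa (chr17:34287774-34288073, minus strand) and H2-Eb1 (chr17:34305617-34305916, plus strand), 2 of the 3 class II chains that fell most, are shown with GCAAC and CCAAT on either strand in capitals (RefSeq, GRCm38.p6, 250 bases before to 50 after the start). Those of H2-Ab1, Cd74 and Ciita are named only.
H2-Aa: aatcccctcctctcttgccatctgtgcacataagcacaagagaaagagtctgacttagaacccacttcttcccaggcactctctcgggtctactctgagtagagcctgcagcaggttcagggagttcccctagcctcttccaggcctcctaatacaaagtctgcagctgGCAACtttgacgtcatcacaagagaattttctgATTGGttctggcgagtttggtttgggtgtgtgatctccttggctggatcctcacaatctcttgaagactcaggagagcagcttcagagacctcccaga
H2-Eb1: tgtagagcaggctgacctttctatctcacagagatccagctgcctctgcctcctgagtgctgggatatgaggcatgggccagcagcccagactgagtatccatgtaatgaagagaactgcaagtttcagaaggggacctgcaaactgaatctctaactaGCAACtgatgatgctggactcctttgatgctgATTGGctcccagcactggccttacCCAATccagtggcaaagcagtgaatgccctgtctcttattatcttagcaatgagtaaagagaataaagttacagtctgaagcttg
In H2-Aa the inverted CCAAT starts 33 bases after GCAAC, and in H2-Eb1 it starts 32 bases after it. Of the 10 class II genes with a listed promoter 5 held both motifs, against 14.4% of the 11436 tested genes with one.

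Markers of monocytes and border-associated macrophages, which can also present antigen, moved with these genes. Of 10 monocyte genes 4 fell, Ccr2, Itga4, Vcan and Treml4, and Fn1 rose (5 calls), with a list median of -1.26. Ccr2, the receptor that brings monocytes into tissue, stood at 24.3, 13.9 and 10.4 CPM in Cre+ and 31.4, 57.03 and 56.1 CPM in Cre- libraries (log2 fold change -1.56 ± 0.27, adjusted p = 0.00196). The groups did not overlap, and Cre- replicate 1 was the lowest of its group. Itga4, the integrin alpha4 chain, had 3.91, 7.74 and 4.97 CPM in Cre+ and 13.2, 16.4 and 11.02 CPM in Cre- libraries (log2 fold change -1.29 ± 0.27, adjusted p = 0.00387). Plac8, also in the list, had a log2 fold change of -1.22 ± 0.47 that did not pass the test (adjusted p = 0.12). The summed CPM of the 10 monocyte genes was nevertheless higher in Cre+, at 496 to 793 against 257 to 402, because Fn1 and Chil3 hold most of it. Of 10 border-associated macrophage genes, Mrc1 and F13a1 fell by 0.73 and 1.08 on the log2 scale (adjusted p = 0.0167 and 0.012), and the list summed to between 167 and 189 CPM in Cre+ libraries, against 230 to 270.4 CPM in Cre- libraries. Fewer cells of a type and less RNA per cell cannot be told apart in bulk libraries. The part of these cells in the class II values was not tested. The monocyte list held 2 calls without Cre+ replicate 1 and 3 without Cre+ replicate 3, Cre- replicate 2 or Cre- replicate 3. The macrophage list held 1 call without Cre+ replicate 1 or 3 and none without Cre- replicate 3.

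MHC class I showed little change: of 17 tested genes 1 rose, Calr, the chaperone calreticulin, by 0.31 (adjusted p = 0.0262), with a list median of -0.03. Near-identical class I genes may share reads, so single H2 class I values are uncertain. Among 14 genes of co-stimulation and co-inhibition 3 rose and 1 fell. Cd40, the receptor of CD40 ligand, stood at 28.1, 4.86 and 15.6 CPM in Cre+ and 4.22, 3.71 and 3.74 CPM in Cre- libraries, with replicate 2 just above the Cre- range and replicates 1 and 3 well above it (log2 fold change 2.06 ± 0.38, adjusted p = 0.00175). Lgals9, which encodes galectin-9, stood at 989.7, 879.5 and 935 CPM in Cre+ and 674, 669 and 663 CPM in Cre- libraries and was alike in the 3 Cre+ libraries (log2 fold change 0.48 ± 0.09, adjusted p = 0.00153). Cd200r1, an inhibitory receptor, rose by 0.44 and Vsir, the checkpoint protein VISTA, fell by 0.30 (adjusted p = 0.044 and 0.0426). Without Cre+ replicate 2 this list held 6 calls, and without any other 1 of the 6 libraries it held 2, Cd40 and Lgals9 among them. Among the fits without 1 library, Calr kept its call only in that without Cre+ replicate 2, where its list held 2 calls.

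Chemokines changed in both directions. Of 21 tested ligands 4 rose and 1 fell, and of 14 receptors none rose and 3 fell. Ccl2, the ligand of Ccr2 and an attractant of monocytes, stood at 149, 103 and 132 CPM in Cre+ and 45.3, 40.9 and 36.7 CPM in Cre- libraries. All 3 Cre+ libraries lay above all Cre- libraries, and Ccl2 had the smallest p of the chemokines (log2 fold change 1.64 ± 0.19, adjusted p = 8.29e-05). Ccl12, another ligand of Ccr2 in mice, stood at 637, 351 and 518 CPM in Cre+ and 227, 244 and 197 CPM in Cre- libraries (log2 fold change 1.17 ± 0.17, adjusted p = 0.000299). Ccl9 had 702, 533 and 588 CPM in Cre+ and 378, 396 and 369.9 CPM in Cre- libraries (log2 fold change 0.67 ± 0.13, adjusted p = 0.0019). Cxcl13, the attractant of B cells, stood at 73.7, 6.65 and 36.98 CPM in Cre+ and 3.62, 4.71 and 2.18 CPM in Cre- libraries, and here the 3 Cre+ libraries differed widely among themselves (log2 fold change 3.49 ± 0.61, adjusted p = 0.00219). Cxcl16 fell by 0.42 on the log2 scale (adjusted p = 0.0486). Among the receptors, Cxcr3, at 2.21, 2.55 and 2.32 CPM in Cre+ and 4.38, 5.04 and 5.91 CPM in Cre- libraries, was lower in every Cre+ library (log2 fold change -1.12 ± 0.30, adjusted p = 0.019), and Ccr2 is given above. Without replicates 1 and 3 the log2 fold changes were 1.37 for Ccl2, 0.70 for Ccl12, 0.53 for Ccl9 and 0.97 for Cxcl13, of which Ccl2 was called. The receptor list held 5 calls without Cre+ replicate 2 and 1 without Cre- replicate 3.

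Of 18 tested inflammatory cytokine and inflammasome genes 1 was called, Il1a, which encodes interleukin-1 alpha, at 622, 442 and 509.9 CPM in Cre+ and 363, 325 and 361 CPM in Cre- libraries (log2 fold change 0.58 ± 0.16, adjusted p = 0.0248). The groups did not overlap, and the list median was 0.04. Among 30 NF-kB factors and Toll-like receptor genes 5 fell and none rose. Cd14, the co-receptor for lipopolysaccharide, stood at 624, 801 and 634 CPM in Cre+ and 1119, 1165 and 1070.0 CPM in Cre- libraries (log2 fold change -0.70 ± 0.12, adjusted p = 0.000828). Nfkbie, an inhibitor of NF-kB, had 18.4, 21.5 and 20.7 CPM in Cre+ and 32.1, 30.5 and 33.7 CPM in Cre- libraries (log2 fold change -0.67 ± 0.10, adjusted p = 0.000378). Tlr8 stood at 1.86, 1.51 and 1.73 CPM in Cre+ and 4.11, 3.71 and 3.97 CPM in Cre- libraries (log2 fold change -1.21 ± 0.27, adjusted p = 0.00527). Each of the 3 genes was lower in every Cre+ than in every Cre- library. Ikbkb, the kinase that releases NF-kB, and Rela, its p65 subunit, fell by 0.35 and 0.37 (adjusted p = 0.0177 and 0.0247). Without Cre+ replicate 1 or Cre- replicate 2 the list held 3 calls. Il1a kept its call in none of the fits without 1 library except that without Cre+ replicate 2.

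Interferon-induced genes rose in part, and more in replicates 1 and 3 than in replicate 2. Of 34 tested genes 10 rose and none fell, with a median of 0.24, or 0.35, 0.15 and 0.32 in replicates 1, 2 and 3. Rsad2, the antiviral enzyme viperin, stood at 82.4, 44.2 and 79.4 CPM in Cre+ and 40.6, 40.4 and 26.3 CPM in Cre- libraries (log2 fold change 0.94 ± 0.21, adjusted p = 0.00615). Ifi44 had 65.7, 16.98 and 54.3 CPM in Cre+ and 12.99, 16.3 and 7.14 CPM in Cre- libraries, with replicate 2 just above the highest Cre- value (log2 fold change 1.92 ± 0.38, adjusted p = 0.00383). Oas3, a sensor of double-stranded RNA, stood at 13.1, 4.39 and 11.9 CPM in Cre+ and 3.78, 6.09 and 2.36 CPM in Cre- libraries, where replicate 2 lay within the Cre- range (log2 fold change 1.27 ± 0.34, adjusted p = 0.0186). Ifit3b had 44.7, 23.5 and 42.8 CPM in Cre+ and 25.2, 24.3 and 15.9 CPM in Cre- libraries and also overlapped (log2 fold change 0.76 ± 0.20, adjusted p = 0.0175), but it shares near-identical sequence with Ifit3, so that its reads are uncertain. Replicate 2 was the nearest to the Cre- mean in 23 of the 34 genes. The list held 1 call without Cre+ replicate 1, 2 without Cre+ replicate 3, 3 without Cre- replicate 3, 4 without Cre- replicate 1 and 12 without Cre+ replicate 2. Of 15 interferon receptors and factors, Ifngr2 rose by 0.61 and Ifngr1 fell by 0.36 (adjusted p = 0.00853 and 0.0443), which encode the paired chains of the interferon gamma receptor. That list held no call without Cre+ replicate 1, 2 without Cre+ replicate 2 and 1 without any other of the 6 libraries.

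The 12 largest rises among eligible genes (called genes that carry an official symbol, average 2 or more in log2 CPM and do not overlap, 748 of them higher and 409 lower) were Lgi2, Olfr1330, Cxcl13, Dcstamp, Ctsw, Perp, Nid2, Upk1b, Kcnn4, Ube2c, Ache and Rxrg. Lgi2, a secreted leucine-rich repeat protein known from neurons, stood at 36.8, 8.11 and 66.2 CPM in Cre+ and 3.95, 3.16 and 0.851 CPM in Cre- libraries. Dcstamp, needed for the fusion of osteoclasts and macrophages, stood at 40.8, 10.1 and 32.99 CPM in Cre+ and 4.06, 3.71 and 3.74 CPM in Cre- libraries. Upk1b, the tetraspanin uroplakin 1b known from urothelium, had the highest level of the 12, at 585, 149 and 439 CPM in Cre+ and 65.3, 50.5 and 92.6 CPM in Cre- libraries. In each of the 3 genes replicate 2 lay between replicates 1 and 3 and the Cre- libraries. Their log2 fold changes were 3.82 ± 0.74, 2.87 ± 0.39 and 2.49 ± 0.38 (adjusted p = 0.00576, 0.000149 and 0.00114). Ctsw, a cysteine protease of cytotoxic lymphocytes, stood at 17.2, 5.52 and 11.9 CPM in Cre+ and 1.48, 1.99 and 1.80 CPM in Cre- libraries (log2 fold change 2.72 ± 0.36, adjusted p = 0.000101), although its exons overlap those of Fibp. Perp, a p53 target and component of desmosomes, stood at 86.6, 24.2 and 55.8 CPM in Cre+ and 9.70, 8.31 and 7.95 CPM in Cre- libraries (log2 fold change 2.69 ± 0.40, adjusted p = 0.000816). The same placing of replicate 2 held in both. Nid2, the basement membrane protein nidogen-2, had 149.9, 38.96 and 103 CPM in Cre+ and 13.3, 14.8 and 22.04 CPM in Cre- libraries (log2 fold change 2.54 ± 0.39, adjusted p = 0.00115). Kcnn4, the calcium-activated potassium channel KCa3.1 of activated microglia, stood at 105, 18.6 and 69.7 CPM in Cre+ and 11.6, 12.3 and 11.6 CPM in Cre- libraries (log2 fold change 2.44 ± 0.40, adjusted p = 0.00166). Ache, acetylcholinesterase, had 28.9, 10.3 and 21.1 CPM in Cre+ and 3.84, 3.99 and 4.54 CPM in Cre- libraries (log2 fold change 2.28 ± 0.30, adjusted p = 0.000139). These 3 genes showed narrow Cre- ranges beside a wide spread among Cre+ libraries. Rxrg, the retinoid X receptor gamma, stood at 86.6, 21.3 and 56.4 CPM in Cre+ and 12.3, 14.8 and 9.18 CPM in Cre- libraries (log2 fold change 2.18 ± 0.41, adjusted p = 0.00359). Olfr1330, an odorant receptor gene, had 41.3, 6.37 and 29.2 CPM in Cre+ and 3.45, 1.83 and 1.32 CPM in Cre- libraries (log2 fold change 3.55 ± 0.53, adjusted p = 0.000629). Of the 12, only Ube2c had replicate 2 level with the other Cre+ libraries.

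**Figure D3:**
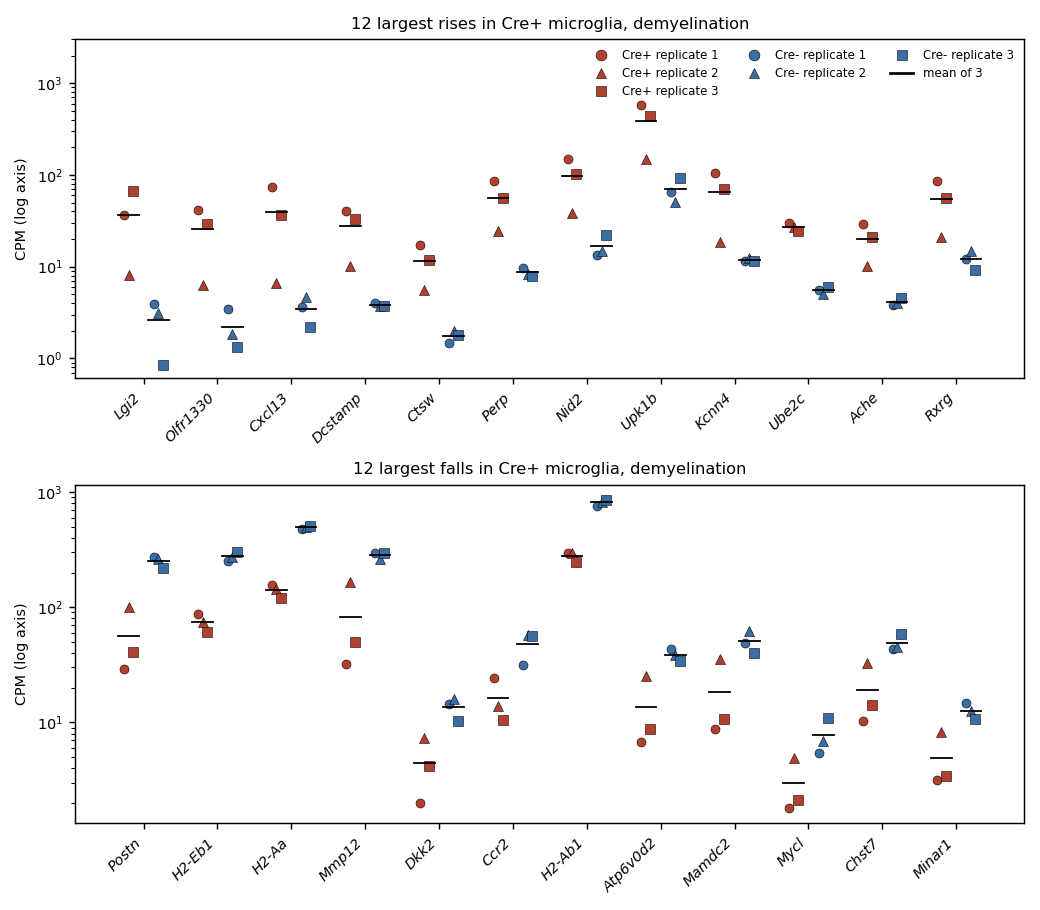
CPM on a log axis of the 12 eligible genes with the largest rise (upper plot) and the 12 with the largest fall (lower plot), with Cre+ in red left of Cre- in blue, 1 point a library and bars at the mean of 3. The Cre+ triangle, replicate 2, lies nearest to the Cre- points in all rises but Ube2c, as for Cxcl13 at 6.65 CPM against 73.7 and 37.0 CPM in replicates 1 and 3. The Cre+ points of H2-Aa, H2-Ab1, H2-Eb1 and Ccr2 do not show that order.

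The 12 largest falls were Postn, H2-Eb1, H2-Aa, Mmp12, Dkk2, Ccr2, H2-Ab1, Atp6v0d2, Mamdc2, Mycl, Chst7 and Minar1. Postn, the matrix protein periostin, stood at 29.3, 99.7 and 40.98 CPM in Cre+ and 270.2, 263 and 220.2 CPM in Cre- libraries. Mmp12, the macrophage elastase, stood at 31.9, 165 and 49.4 CPM in Cre+ and 295, 262 and 297 CPM in Cre- libraries, and its exons overlap those of Mmp1b. In both, replicate 2 was the highest Cre+ library. That it stayed below every Cre- library follows from the naming rule, which required groups without overlap. The log2 fold changes were -2.15 ± 0.31 and -1.80 ± 0.46 (adjusted p = 0.000692 and 0.022). Atp6v0d2, a subunit of the vacuolar proton pump of macrophages and osteoclasts, stood at 6.74, 25.3 and 8.80 CPM in Cre+ and 42.9, 38.2 and 34.1 CPM in Cre- libraries (log2 fold change -1.50 ± 0.35, adjusted p = 0.0108). Mamdc2 had 8.76, 35.2 and 10.6 CPM in Cre+ and 48.9, 62.3 and 40.3 CPM in Cre- libraries (log2 fold change -1.47 ± 0.40, adjusted p = 0.0278). Chst7, a sulfotransferase of chondroitin, stood at 10.3, 32.9 and 14.2 CPM in Cre+ and 43.6, 44.9 and 58.4 CPM in Cre- libraries (log2 fold change -1.36 ± 0.40, adjusted p = 0.0439). In these 3 genes too replicate 2 was the highest Cre+ library. Dkk2, a secreted modulator of Wnt signalling, had 1.98, 7.31 and 4.16 CPM in Cre+ and 14.5, 16.002 and 10.3 CPM in Cre- libraries (log2 fold change -1.61 ± 0.46, adjusted p = 0.0313). Mycl, the transcription factor L-Myc, had 1.82, 4.95 and 2.11 CPM in Cre+ and 5.37, 6.87 and 10.8 CPM in Cre- libraries (log2 fold change -1.39 ± 0.34, adjusted p = 0.0132). Minar1 stood at 3.14, 8.21 and 3.40 CPM in Cre+ and 14.6, 12.5 and 10.7 CPM in Cre- libraries (log2 fold change -1.36 ± 0.31, adjusted p = 0.00738). Without replicate 1 of Cre+, or without replicate 3, none of Mmp12, Dkk2, Atp6v0d2, Mamdc2, Mycl, Chst7 and Minar1 kept its call. Among all 25 tested matrix genes 4 fell, Postn, Mmp12, Mmp14 and Vcan, and 2 rose, Fn1 and Sparc. Fn1, fibronectin, stood at 561, 272 and 362 CPM in Cre+ and 124, 162 and 88.3 CPM in Cre- libraries (log2 fold change 1.68 ± 0.39, adjusted p = 0.0122). Mmp14, a membrane metalloproteinase, had 42.6, 67.5 and 44.2 CPM in Cre+ and 89.01, 103 and 90.1 CPM in Cre- libraries (log2 fold change -0.87 ± 0.17, adjusted p = 0.00281). The matrix list held 3 calls without Cre+ replicate 1 or Cre- replicate 3.

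Genes of the disease-associated state, which microglia take on near damaged myelin, changed in both directions. Of 33 tested, 7 rose and 2 fell. Cst7, the cathepsin inhibitor cystatin F, stood at 2797, 1968 and 2434 CPM in Cre+ and 1093, 1136 and 743 CPM in Cre- libraries (log2 fold change 1.28 ± 0.21, adjusted p = 0.00144). Ctsd, the lysosomal protease cathepsin D, stood at 34196, 31572 and 33334 CPM in Cre+ and 24565, 25676 and 22072 CPM in Cre- libraries (log2 fold change 0.46 ± 0.09, adjusted p = 0.00315). Ch25h, which makes 25-hydroxycholesterol, had 308, 269 and 291 CPM in Cre+ and 163, 171 and 113 CPM in Cre- libraries (log2 fold change 0.96 ± 0.20, adjusted p = 0.00575). In these 3 genes the groups did not overlap. Apoe, the lipid carrier of brain lipoproteins, was the most abundant of the list, at 27980.5, 42022 and 32179 CPM in Cre+ and 57570.1, 61773 and 45251 CPM in Cre- libraries. It fell, with replicate 2 the nearest to Cre- (log2 fold change -0.69 ± 0.21, adjusted p = 0.0429). Ctsz rose by 0.48 and Atp6v0d2 is given above. Without Cre+ replicate 1 there were 3 calls in this list, and without Cre+ replicate 3 there were 4. The 28 homeostatic genes, which mark microglia of healthy brain, held 2 rises and 1 fall (10.7% called, against 9.17% of all genes). They held 5 calls without Cre+ replicate 2. Their summed CPM was 79093 to 87036 in Cre+ and 72673 to 82602 in Cre- libraries, so the sorted cells carried the markers of microglia in both groups.

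Sparc, a matricellular protein that microglia make in the healthy brain, stood at 7938, 5496 and 6819 CPM in Cre+ and 3589.7, 3379 and 3792 CPM in Cre- libraries. It was higher in every Cre+ library than in every Cre- library (log2 fold change 0.91 ± 0.13, adjusted p = 0.000139). Olfml3, an olfactomedin that is a microglial marker, had 3639, 2626 and 3340.0 CPM in Cre+ and 1984, 2017 and 2301 CPM in Cre- libraries (log2 fold change 0.61 ± 0.13, adjusted p = 0.00406). Of 34 microglial and myeloid transcription factors 1 was called, and the median of the list was -0.185. That list held 2 calls without Cre+ replicate 2 and none without any other of the 6 libraries.

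Of 24 phagocytosis genes 5 rose and 1 fell. Scarb1, a scavenger receptor for lipoproteins, stood at 259, 121 and 209 CPM in Cre+ and 79.7, 89.1 and 78.5 CPM in Cre- libraries (log2 fold change 1.25 ± 0.24, adjusted p = 0.00387). Itgb3, the integrin beta3 chain, had 174, 66.3 and 139 CPM in Cre+ and 41.8, 44.4 and 47.01 CPM in Cre- libraries (log2 fold change 1.51 ± 0.28, adjusted p = 0.00281). Itgam, which encodes CD11b, the antigen used in the sort, stood at 608, 525 and 563 CPM in Cre+ and 403, 398 and 428 CPM in Cre- libraries (log2 fold change 0.47 ± 0.09, adjusted p = 0.00166). All 3 were higher in every Cre+ library, and replicate 2 was the lowest Cre+ library in each. Gas6, a ligand that bridges dying cells to TAM receptors, rose by 0.60, and Siglecf, a sialic acid receptor, by 0.91 (adjusted p = 0.00479 and 0.00852). Cd22, which restrains phagocytosis in aged mouse microglia, fell to 39.6, 76.1 and 49.2 CPM in Cre+ libraries, against 114, 116 and 84.4 CPM in Cre- libraries (log2 fold change -0.93 ± 0.28, adjusted p = 0.0433). Without Cre+ replicate 2 the list held 12 calls, and without Cre+ replicate 1 it held 3. Of 20 complement and Fc receptor genes 3 rose: C5ar2, Fcgr1 and Cfb, by 0.79, 0.42 and 1.49 (adjusted p = 0.0108, 0.0312 and 0.0352), with overlapping groups in Cfb. That list held no call without Cre+ replicate 1, 1 without Cre+ replicate 3, Cre- replicate 1 or Cre- replicate 3, and 5 without Cre+ replicate 2.

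Of 36 lysosomal genes tested 10 rose and 1 fell, with a median of 0.14. Gusb, beta-glucuronidase, stood at 1649, 1215 and 1454 CPM in Cre+ and 865, 893 and 779 CPM in Cre- libraries (log2 fold change 0.77 ± 0.11, adjusted p = 0.000137). Ctsf, cathepsin F, had 654, 423 and 561 CPM in Cre+ and 371, 365 and 409 CPM in Cre- libraries (log2 fold change 0.52 ± 0.12, adjusted p = 0.00838). Psap, the precursor of the saposins that help break down sphingolipids, was the gene that fell, at 4101, 4867 and 4070.4 CPM in Cre+ and 5766, 6203 and 5393 CPM in Cre- libraries (log2 fold change -0.41 ± 0.10, adjusted p = 0.00934). None of these 3 overlapped. The list held 2 calls without Cre+ replicate 1, 5 without Cre+ replicate 3 or Cre- replicate 3, and 7 without Cre- replicate 2.

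In lipid handling, 1 of 21 efflux and storage genes rose, Ch25h, and 2 fell, Apoe and Cyp27a1, all given above; without Cre+ replicate 2 this list held 5 calls. Of 24 genes of sterol synthesis and uptake 3 rose and none fell (12.5% called, against 9.17% of all genes). Hmgcs1, which makes HMG-CoA for sterol synthesis, stood at 45.4, 43.3 and 51.3 CPM in Cre+ and 34.4, 33.3 and 35.1 CPM in Cre- libraries (log2 fold change 0.45 ± 0.11, adjusted p = 0.0105). Srebf1, a transcription factor of lipid synthesis, had 79.5, 64.4 and 74.99 CPM in Cre+ and 45.3, 55.2 and 46.8 CPM in Cre- libraries (log2 fold change 0.57 ± 0.14, adjusted p = 0.00871), and Msmo1, a sterol oxidase, rose by 0.40 (adjusted p = 0.0287). In all 3 genes the groups did not overlap. The sterol list held 1 call without Cre+ replicate 1 or 3.

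Glycolysis was the list with the largest share of calls after the mitotic genes. Of 21 genes of glycolysis and hypoxia 11 rose and 1 fell, 57.1% against 9.17% of all genes, with a median of 0.31. Ldha, lactate dehydrogenase A, stood at 1205, 1103 and 1114 CPM in Cre+ and 781, 814 and 722 CPM in Cre- libraries (log2 fold change 0.56 ± 0.09, adjusted p = 0.000454). Pgam1, phosphoglycerate mutase, had 163, 141 and 147 CPM in Cre+ and 104, 109 and 97.4 CPM in Cre- libraries (log2 fold change 0.54 ± 0.10, adjusted p = 0.00165). Gapdh stood at 2024, 1728 and 1937 CPM in Cre+ and 1284, 1345 and 1198 CPM in Cre- libraries (log2 fold change 0.57 ± 0.12, adjusted p = 0.00423). The 3 Cre+ libraries lay together above the Cre- libraries in these genes. Pfkl, the liver-type phosphofructokinase, rose by 0.62 (adjusted p = 0.00649), with replicate 2 nearest to Cre-. Hk1, a hexokinase, fell by 0.49 (adjusted p = 0.0287). The median was 0.35, 0.27 and 0.28 in Cre+ replicates 1, 2 and 3, and 0.32 with replicates 1 and 3 left out, when no member was called. The list held 3 calls without Cre+ replicate 1, 5 without Cre+ replicate 3, 6 without Cre- replicate 1 and 4 without Cre- replicate 3. In naive microglia the median of the list was -0.345.

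**Figure D4:**
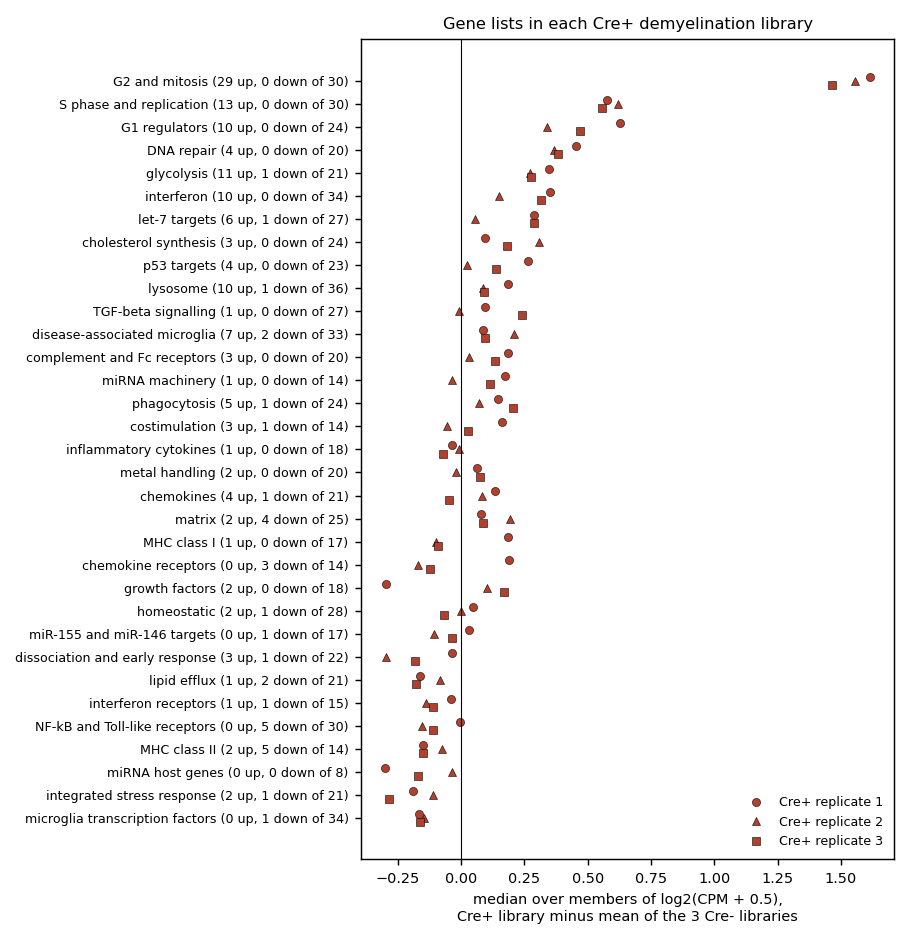
Median over the tested members of each gene list (y axis, with the number called higher and lower) of log2(CPM + 0.5) in a Cre+ library minus the mean of the 3 Cre- libraries (x axis), 1 symbol for each Cre+ library. The G2 and mitosis list lies far right at 1.47 to 1.62, with its 3 libraries close together. The interferon list at 0.15 to 0.35 has replicate 2 lowest.

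Stress genes split. Among 22 immediate early and dissociation genes 3 rose, all heat shock genes, and 1 fell. Hspa1b, an inducible Hsp70 gene, stood at 523, 179 and 643 CPM in Cre+ and 97.999, 125 and 131 CPM in Cre- libraries (log2 fold change 1.93 ± 0.30, adjusted p = 0.00126). Hspa1a had 279, 91.2 and 376 CPM in Cre+ and 47.2, 60.2 and 77.2 CPM in Cre- libraries (log2 fold change 2.01 ± 0.34, adjusted p = 0.00196), and reads cannot be told apart with certainty between these near-identical genes. Hsp90aa1, inducible Hsp90, had 276, 195 and 322 CPM in Cre+ and 157, 159.9 and 164 CPM in Cre- libraries (log2 fold change 0.72 ± 0.14, adjusted p = 0.00199). Replicates 1 and 3 were the high libraries in all 3. Jun, an AP-1 factor, fell to 729, 794 and 777 CPM in Cre+ libraries, against 1102, 1209 and 1612 CPM in Cre- libraries (log2 fold change -0.77 ± 0.21, adjusted p = 0.0246). Of 21 genes of the integrated stress response, Psat1, an enzyme of serine synthesis, rose, at 415, 198 and 313 CPM in Cre+ and 104, 103 and 78.3 CPM in Cre- libraries (log2 fold change 1.70 ± 0.24, adjusted p = 0.000402). Hspa5, the chaperone BiP of the endoplasmic reticulum, rose by 0.44 and Herpud1 fell by 0.28 (adjusted p = 0.0177 and 0.0467). That list held 5 calls without Cre+ replicate 2 and 1 without Cre+ replicate 1 or 3 or Cre- replicate 2.

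Some lists held shares of calls near or below the 9.17% of all genes. These were 10.0% for metal handling, 11.1% for growth factors and 3.70% for TGF-beta signalling. Of 20 genes of metal handling 2 rose: Tfrc, the transferrin receptor, at 36.1, 26.04 and 35.6 CPM in Cre+ and 21.9, 19.9 and 21.7 CPM in Cre- libraries, and Slc40a1, the iron exporter ferroportin, at 292, 182 and 244 CPM in Cre+ and 139.9, 137 and 182 CPM in Cre- libraries. Their log2 fold changes were 0.62 ± 0.15 and 0.64 ± 0.16 (adjusted p = 0.0104 and 0.0121), and Slc40a1 overlapped between the groups. Of 18 secreted repair and growth factors Pdgfa, a mitogen of oligodendrocyte precursors, rose, at 56.3, 36.1 and 45.4 CPM in Cre+ and 26.7, 32.2 and 22.1 CPM in Cre- libraries (log2 fold change 0.77 ± 0.16, adjusted p = 0.00328), as did Grn, which encodes progranulin, by 0.34 (adjusted p = 0.0399). Of 27 genes of TGF-beta signalling 1 rose, Acvr2a, an activin receptor, by 0.59 with overlapping groups (adjusted p = 0.0273). The metal list held 5 calls without Cre+ replicate 2, none without Cre+ replicate 1, and 1 without Cre+ replicate 3 or Cre- replicate 1 or 2. The growth factor list held none without Cre+ replicate 1 and 1 without Cre+ replicate 3, Cre- replicate 1 or Cre- replicate 3. Acvr2a, among the fits without 1 library, kept its call only in those without Cre+ replicate 2 or Cre- replicate 3.

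Genes of miRNA processing and silencing other than Dicer1 were called in 7.14% of cases, near the 9.17% of all genes. Of 14 tested 1 was called, Ran, the GTPase that works with exportin-5 in carrying precursor miRNAs and with importins in general transport, at 267, 243 and 242 CPM in Cre+ and 183, 187 and 175 CPM in Cre- libraries (log2 fold change 0.46 ± 0.10, adjusted p = 0.00331). None of 8 tested miRNA host transcripts was called, and the smallest p belonged to Mir142hg, at 55.7, 64.6 and 53.2 CPM in Cre+ and 82.7, 77.4 and 81.2 CPM in Cre- libraries (log2 fold change -0.47 ± 0.18, adjusted p = 0.12). Of 27 let-7 targets known from other systems 6 rose and 1 fell. These were Ccnd1, Ccnd2, Cdk6, Cdc25a, Rrm2 and Dna2, which rose, and Arid3b, which fell by 0.32 on the log2 scale (adjusted p = 0.0481). All 6 that rose are genes of the cell cycle or of DNA replication, several of them in the lists above. Cdk6, the kinase of D-type cyclins, stood at 90.9, 74.7 and 83.04 CPM in Cre+ and 53.001, 47.4 and 60.02 CPM in Cre- libraries (log2 fold change 0.63 ± 0.16, adjusted p = 0.0156). Cdc25a, the phosphatase that activates Cdk2, had 21.7, 19.5 and 23.4 CPM in Cre+ and 13.5, 15.4 and 15.7 CPM in Cre- libraries (log2 fold change 0.53 ± 0.15, adjusted p = 0.026). Ccnd1 stood at 55.4, 42.5 and 48.4 CPM in Cre+ and 32.2, 28.6 and 35.3 CPM in Cre- libraries (log2 fold change 0.61 ± 0.15, adjusted p = 0.0135). The groups did not overlap in these 3. The let-7 list held no call without Cre+ replicate 1, 4 without Cre+ replicate 3 or Cre- replicate 3, and 1 without Cre- replicate 2. Of 17 targets of miR-155 and miR-146a 1 was called, and the median of the list was -0.045.

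Loss of mature miRNAs would be read most directly from mRNAs with seed sites, so 3′ UTRs were searched for the sites of 21 miRNA families known from microglia or macrophages and 3 families known from other tissues as controls. These families come from background knowledge and the listed sequences, since miRNAs were not measured in these libraries. The mature sequences of let-7a, miR-99a, miR-24 and miR-155 are shown, the first for the targets above, the next 2 for the largest differences either way and the last for its known role in macrophages (RefSeq, GRCm38.p6, seed in capitals).
mmu-let-7a-5p: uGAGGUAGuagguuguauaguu
mmu-miR-99a-5p: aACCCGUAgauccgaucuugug
mmu-miR-24-3p: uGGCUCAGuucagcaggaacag
mmu-miR-155-5p: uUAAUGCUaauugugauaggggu
Among 13242 genes with a 3′ UTR of at least 50 bases, 2080 had a let-7 site, and their median log2 fold change was 0.01, against 0.00 in the 11162 without one. For miR-155 the medians were -0.01 in 1743 genes with a site and 0.01 in 11499 without. For miR-99/100 they were 0.06 (0.055) in 288 genes with a site and 0.00 (0.003) in those without, and for miR-24 they were -0.01 in 3289 genes and 0.01 in the others. Over the 21 families the difference of medians, with a site minus without, ran from -0.03 (-0.025) to 0.05, with a median of 0.00 and 11 families above 0. Over the 3 control families it ran from -0.02 to 0.00 (-0.017 to -0.004). Genes with a site of one of the 21 families were called higher in 5.67% to 7.74% of cases, against 6.99% of all 13242 genes. Families share genes and 3′ UTR length, so these values are descriptions with no test.

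The summed CPM of 10 endothelial genes was 151 to 156 in Cre+ libraries, against 103 to 129.96 in Cre- libraries, without overlap, and none of the 10 was called (median log2 fold change 0.435). The part of such cells in other values was not tested. The summed CPM of 10 oligodendrocyte genes was 193 to 199 in Cre+ and 163 to 201 in Cre- libraries, and none of the 9 tested was called. Of 6 tested genes of oligodendrocyte precursors Cspg4, which encodes NG2, rose, at 109, 63.2 and 89.1 CPM in Cre+ and 37.8, 46.9 and 33.4 CPM in Cre- libraries (log2 fold change 1.15 ± 0.26, adjusted p = 0.00838), while Pdgfra, which defines these cells, was near 0 in both groups, at 0.426, 0.236 and 0.756 CPM in Cre+ and 0.493, 0.166 and 0.426 CPM in Cre- libraries. Of 11 astrocyte genes Slc1a3, a glutamate transporter that microglia can also express, fell by 0.38 (adjusted p = 0.0426). Cspg4 lost its call without Cre+ replicate 1, and Slc1a3 kept its own, among the fits without 1 library, only without Cre+ replicate 2. No tested neuron, endothelial, mural or erythroid gene was called, and none of the markers in any of these lists was at 0 in all 6 libraries. Of 14 lymphocyte genes 5 were tested and Cd79a, of the B cell receptor, fell, at 0.310, 0.330 and 0.702 CPM in Cre+ and 0.713, 1.55 and 2.18 CPM in Cre- libraries (log2 fold change -1.75 ± 0.56, adjusted p = 0.05), a call that held without Cre- replicate 1 but not without any other single library. Some genes known from antibody-secreting cells and eosinophils, chosen after their values were seen, went the same way. Siglecf, a receptor also known from eosinophils, went the other way, as given above. The number of such cells was not measured. Igkc, the kappa light chain constant region, stood at 0.0387, 0.189 and 0.108 CPM in Cre+ and 9.70, 32.1 and 10.6 CPM in Cre- libraries (log2 fold change -7.25 ± 0.90, adjusted p = 0.000137). Jchain, which joins secreted antibodies, had 0.232, 0.0472 and 0.216 CPM in Cre+ and 2.14, 6.76 and 2.51 CPM in Cre- libraries (log2 fold change -4.45 ± 0.76, adjusted p = 0.00104). Ear2 and Epx, granule genes of eosinophils, had 0.814, 0.330 and 0.918 CPM in Cre+ and 1.81, 8.86 and 7.19 CPM in Cre- libraries and 0.116, 0.0472 and 0.216 CPM in Cre+ and 0.767, 1.55 and 3.45 CPM in Cre- libraries. Each was lower in every Cre+ than in every Cre- library, with log2 fold changes of -3.11 ± 0.70 and -3.90 ± 0.93 (adjusted p = 0.00927 and 0.0105). In naive libraries Igkc reached at most 0.14 CPM in Cre+ and 0.165 CPM in Cre-.

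The genotype effect in demyelination was set against that in naive mice, whose Cre+ and Cre- libraries are separate. The difference of the 2 effects passed the test for 2769 genes (15.8%), 1401 more positive (7.97%) and 1368 more negative (7.78%) in demyelination. Among the 24 genes of largest change it did so for 5: Olfr1330, Ctsw, Ache, Rxrg and Postn. These 24 were chosen by their effect in demyelination, which is part of the difference. Postn, lower in Cre+ in demyelination, stood in naive mice at 55.5, 43.3 and 45.5 CPM in Cre+ and 18.9, 24.1 and 23.7 CPM in Cre- libraries, the opposite order. Its difference of effects was -3.25 ± 0.44, adjusted p = 0.000242. Ctsw stood at 0.702, 1.67 and 0.846 CPM in naive Cre+ and 1.76, 1.62 and 1.22 CPM in naive Cre- libraries, which overlapped (difference of effects 3.17 ± 0.52, adjusted p = 0.000327). Rxrg had 1.08, 0.652 and 1.54 CPM in naive Cre+ and 3.62, 1.09 and 2.08 CPM in naive Cre- libraries, likewise overlapping (difference 3.20 ± 0.68, adjusted p = 0.00475). Olfr1330 and Ache had differences of 2.88 ± 0.72, adjusted p = 0.0114, and 1.22 ± 0.40, adjusted p = 0.0405. With all 3 low-Cx3cr1 libraries left out, 1 Cre+ demyelination library remained. The differences were then -2.25 for Postn, 1.97 for Ctsw, 1.92 for Rxrg, 1.10 for Olfr1330 and 0.44 for Ache. Ube2c stood in naive mice at 1.68, 7.32 and 7.12 CPM in Cre+ and 1.43, 1.48 and 1.39 CPM in Cre- libraries, where the low-Cx3cr1 replicate 1 lay near the Cre- values (difference 0.37 ± 0.51, adjusted p = 0.699). Dcstamp and Atp6v0d2 had no more than 1 count in any naive library.

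**Figure D5:**
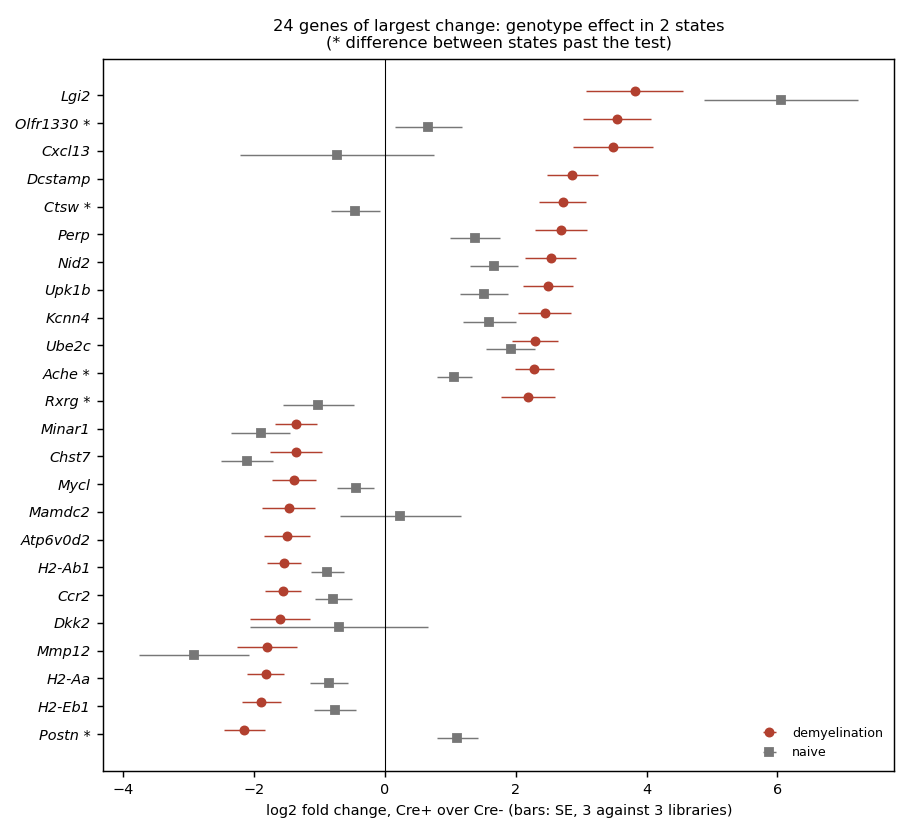
Log2 fold change of Cre+ over Cre- (x axis, 3 against 3 libraries) of the 24 genes of largest change (y axis). Red circles are demyelination and grey squares naive mice (not drawn for Dcstamp and Atp6v0d2). Bars are the SE derived from the F test of the fit. The 5 genes with an asterisk differ between the states, and Postn has its circle at -2.15 and its square at 1.10.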

How the data were processed

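RNA was extracted with a column kit and libraries were made with an ultra-low input kit, per the labels' protocols. The submitters' processing notes name Trimmomatic 0.36, STAR 2.5.2b, featureCounts of Subread 1.5.2 and the build GRCm38. What the authors deposited is 1 table of raw counts, by Ensembl gene, for 24 libraries. No source used here gives the strand and multimapping settings, so overlapping genes and near-identical copies are uncertain. Of 49315 identifiers 49056 matched GENCODE M21, which gave symbols, positions and 3′ UTRs.

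Genes were filtered by filterByExpr, scaled by TMM and fitted as 8 group means with robust dispersions in edgeR 4.0.16 (R 4.3.3), and Cre+ minus Cre- was tested in 2-sided quasi-likelihood F tests with Benjamini-Hochberg adjustment. Alternatives were DESeq2 1.42.0, its size factors, no filter, fewer libraries, a replicate block, each library left out, the low-Cx3cr1 libraries left out, and GC content and length correction. Same-numbered libraries did not deviate together (r = 0.02, -0.02 and -0.03), so replicate numbers were not used as pairs. Named genes are Dicer1, Cx3cr1, the 12 largest rises and falls among eligible genes (sex-linked, erythroid and immunoglobulin genes left out), and up to 4 called members of each of 44 gene lists, or 2 where none was called; not all are printed. Other list members are given where a count of the list turns on them. A few genes of these lists are not reported here. Members and lists were chosen with earlier results of these data known.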

Additional observations from a re-analysis of the deposited data

Results flagged for a closer look

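In 5 of the 24 genes of largest change the genotype effect in demyelination differed from that in naive mice. The difference itself was tested in edgeR (Benjamini-Hochberg adjustment over all genes), and 15.8% of all genes tested passed. The 24 were chosen by their effect in demyelination, which is part of the difference, so the count is no result about them. On the log2 scale the difference, demyelination minus naive, was 2.88 for Olfr1330 (adjusted p = 0.0114), 3.17 for Ctsw (adjusted p = 0.000327), 1.22 for Ache (adjusted p = 0.0405), 3.20 for Rxrg (adjusted p = 0.00475) and -3.25 for Postn (adjusted p = 0.000242). With the 3 low-Cx3cr1 libraries left out, 1 Cre+ demyelination library remained, so only the sizes are given. The differences were then 1.10 for Olfr1330, 1.97 for Ctsw, 0.44 for Ache, 1.92 for Rxrg and -2.25 for Postn. Groups of 3 libraries are too small for a search for single outlying samples.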

How the results depend on the processing

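The count of genes called moved with the libraries used. Leaving out a naive library adds no demyelination data, and acts on these calls only through the spread, filter and scaling that all libraries share. With single libraries left out in turn it ran from 422 to 2165, with 277 to 1330 higher and 145 to 835 lower. With both low-Cx3cr1 demyelination libraries left out it was 6 (3 higher, 3 lower), and with the low naive library left out as well, chosen after seeing the data, 81 (75 higher, 6 lower); fewer Cre+ libraries then carried the test. The difference from naive had 2769 calls, 1732 and 1625 under these same alternatives, and 2132 to 2578 with single libraries left out. The replicate block gave 1562 calls (950 higher, 612 lower), 1389 of them shared with the 1612, and pairing was not seen in the data. DESeq2's size factors gave 1714 calls, 1247 higher and 467 lower, against 1001 and 611, with 1468 shared. The Wald test of DESeq2 called 2031 and the fit without a count filter 1956. Dicer1 was -0.45 (adjusted p = 0.0922), and with single libraries left out ran from -0.62 to -0.28; without Cre- replicate 3, at -0.62, it passed (adjusted p = 0.0281). Cx3cr1 ran from -5.83 to -2.20, passing at -5.83 without Cre+ replicate 2 (adjusted p = 0.000415), and at -1.23 with all 3 low libraries left out (adjusted p = 0.00063). Of the 115 named genes that were called, none changed direction in the alternatives that gave it a value, and 6 alternatives gave values for 114 of them. Most of the 115 had groups without overlap, as the naming rule required for the largest rises and falls. Leaving libraries out could hardly turn the direction of such genes. Abcc9, a mural marker that was not called, turned to -0.19 with both low demyelination libraries, or all 3, left out. The median seed-site difference was 0.002, and 0.001 for 8mer sites, -0.009 with both low demyelination libraries left out and -0.003 with GC and length correction. At these depths genes of low level set the limit, and p values rest on 3 libraries a group.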

Other observations

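Below the level filter of the naming rule, several genes were high in Cre+ replicates 1 and 3 and far lower in replicate 2. They were chosen after their values were seen. Ddo, D-aspartate oxidase, stood at 30.3, 2.55 and 15.5 CPM in Cre+ and 0.548, 0.831 and 0.757 CPM in Cre- libraries (log2 fold change 4.49 ± 0.71, adjusted p = 0.00104, edgeR). Syt6, a synaptotagmin, had 11.04, 1.84 and 7.07 CPM in Cre+ and 0.329, 0.111 and 0.709 CPM in Cre- libraries (log2 fold change 4.06 ± 0.55, adjusted p = 0.000137). Gcm2, a transcription factor known from the parathyroid, had 10.5, 0.755 and 6.48 CPM in Cre+ and 0.329, 0.0554 and 0 CPM in Cre- libraries (log2 fold change 5.51 ± 1.01, adjusted p = 0.00293), and Ostn, the secreted peptide osteocrin, had 9.45, 0.519 and 6.64 CPM in Cre+ and 0.274, 0.0554 and 0.142 CPM in Cre- libraries (log2 fold change 5.09 ± 0.88, adjusted p = 0.00184). In each of the 4 genes replicates 1 and 3 were the high libraries, and replicate 2 was still above every Cre- library. In naive mice Ddo lay at 0.459 to 1.22 CPM in Cre+ libraries, against 0.659 to 1.19 CPM in Cre- libraries.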
